A study of Mus musculus with 10 samples.

Results

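The genes for Wnt ligands, their receptors and their secreted modulators were followed across 3 groups of mouse lung. Of 53342 genes in the deposited table, 50 protein-coding genes were taken by symbol: Wnt, Fzd, Sfrp, Dkk or Rspo followed by a digit, and Frzb, Wif1, Lgr4, Lgr5, Lgr6, Lrp5, Lrp6, Axin2 and Notum. By role they are 19 ligands, 12 receptors, 7 R-spondins or their Lgr receptors, 10 secreted antagonists, and 2 genes that Wnt signalling itself induces, Axin2 and Notum. No measured value entered the rule.

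Wnt proteins are secreted, lipid-modified signals that bind Frizzled receptors, and with the co-receptors Lrp5 and Lrp6 they keep beta-catenin from being degraded. R-spondins act through Lgr receptors to keep Frizzleds on the cell surface, while Sfrp, Frzb and Wif1 proteins bind the ligands and Dkk1 acts at the co-receptor. In the lung the pathway is known for airway and alveolar development, and in the adult for exchanges between mesenchyme and alveolar epithelium.

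RNA came from whole lungs of mice, all labelled as female BALB/c animals aged 12 weeks. PBS, the control, has 4 libraries and PBS as its labelled treatment. HDM has 3 libraries from mice given intranasal house dust mite allergen daily, with 5 dosing days a week over 3 weeks, and its label adds the solvent DMSO, which the PBS label does not name. SF-3-030+HDM has 3 libraries from the same allergen course with SF-3-030, a compound that the series title ties to selective targeting of ERK1/2 kinase functions, given intranasally at 10 mg/kg, 30 min ahead of each allergen dose. The labels name no group with the compound alone, so its effect without allergen was not measured. Nor is it stated that replicates came from separate animals, so p-values here measure the spread between these samples, which may be technical.

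Summed expected counts ran from 38667118 to 59083942 per library, and levels are given in CPM, the count scaled to that sum in the usual way. The SF-3-030+HDM libraries and the other 7 differed in genes outside the Wnt family, although all carry the label BALB/c. H2-Ea-ps is an MHC class II gene that is silent in some inbred strains and transcribed in others. It read 331 to 432 CPM in SF-3-030+HDM against 0.107 to 0.953 CPM in the other 7. Trim12a read 0.199 to 0.363 CPM against 18.7 to 30.6 CPM. Whatever separates these sets of libraries and the compound cannot be told apart in this design. Against the label female, PBS 2, HDM 2 and HDM 3 held the Y-linked gene Ddx3y at 30.2, 31.5 and 20.4 CPM, with at most 0.575 CPM in any other library. Reads in olfactory and vomeronasal receptor genes, used here as a measure of background, summed to 453, 298 and 222 CPM in PBS 1, PBS 4 and HDM 3, to 48.0 to 110 CPM in the other PBS and HDM libraries, and to 15.8 to 31.8 CPM in SF-3-030+HDM. Because the tissue was bulk, fewer cells of a type and less RNA per cell cannot be told apart for any gene described here.

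Most of the family was readable in lung, at very unequal levels. In every library 31 of the 50 genes reached 1 CPM, and 8 stayed below 1 CPM in every library. The filter on low counts kept 47. The ligands Wnt8a and Wnt16 and the antagonist Dkk1 were not kept, and their highest values in any library were 0.0636, 0.311 and 0.0717 CPM. For comparisons between genes, CPM was divided by exon length in kilobases. In PBS the highest level was that of Dkk3, a divergent Dkk relative, at 26.7 ± 5.00 CPM per kb (SD, n = 4). Lrp5 at 21.4 ± 2.86 CPM per kb and Fzd4, a Frizzled of blood vessels, at 21.1 ± 6.91 CPM per kb followed, and these neighbours did not differ beyond their spread.

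Among the ligands in PBS, Wnt2, a mesenchymal ligand that lung development needs, read 9.61 ± 1.37 CPM per kb. Wnt3a, a strong activator of beta-catenin, read 9.60 ± 1.94 CPM per kb, level with Wnt2. Wnt4 at 6.71 ± 2.17 CPM per kb and Wnt7a at 6.29 ± 0.950 CPM per kb came next, and the ranges of 1 SD overlapped between neighbours in this order. In HDM the order per kb was Wnt3a at 6.06 ± 0.715, Wnt4 at 5.10 ± 1.09 and Wnt2 at 3.91 ± 0.830 CPM per kb (SD, n = 3), and these ranges overlapped between neighbours here too. In SF-3-030+HDM Wnt2 had the highest ligand level at 7.52 ± 0.459 CPM per kb, above Wnt3a at 3.52 ± 0.172 CPM per kb by more than their spread.

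Summed over the 19 ligands, PBS libraries ranged from 154 to 220 CPM, HDM libraries from 111 to 125 CPM and SF-3-030+HDM libraries from 99.4 to 108 CPM, with no overlap between groups. The make-up of the ligand pool differed as well. Wnt2 supplied 11.1% to 13.5% of the ligand CPM of PBS libraries, against 6.12% to 9.75% under HDM and 15.9% to 17.2% with the compound. Wnt5a, a ligand best known for signalling without beta-catenin, supplied 5.62% to 9.22%, 10.9% to 14.3% and 18.3% to 23.9% in the same order. For both ligands the 3 ranges of shares were separate, as were those of Wnt5b and Wnt7b. These shares use CPM without division by exon length, so longer genes weigh more. The CPM of Wnt5a itself overlapped between PBS, at 11.5 to 15.5 CPM, and HDM, at 12.1 to 17.9 CPM. The 12 receptors summed to 528 to 724 CPM (PBS), 423 to 601 CPM (HDM) and 463 to 503 CPM (SF-3-030+HDM), and these ranges overlapped between PBS and HDM and between HDM and SF-3-030+HDM.

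**Figure D1:**
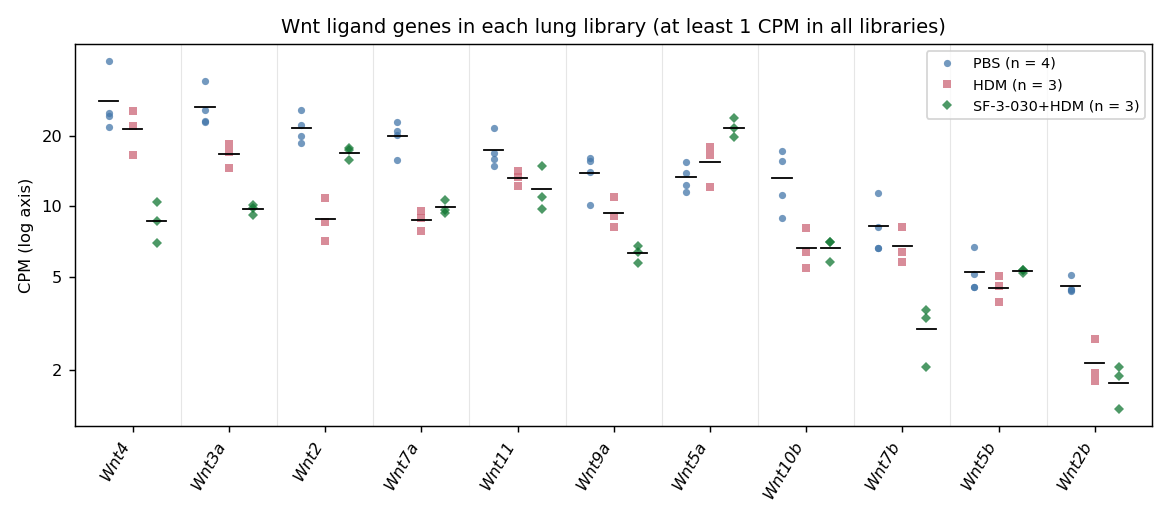
CPM on a log axis of the Wnt ligand genes that reached 1 CPM in every library. Each point is a library of PBS, HDM or SF-3-030+HDM and each bar a group mean; Wnt2 and Wnt7a are lower in HDM than in PBS without overlap, and Wnt2 but not Wnt7a has an SF-3-030+HDM mean well above its HDM mean.

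HDM was compared with PBS, from which it differs by the allergen course and by the DMSO on its label. Effects of the allergen and of DMSO cannot be told apart in this design. Libraries with Y-linked reads were also unevenly spread, with HDM 2 and HDM 3 but PBS 2 alone among the controls. The ligands Wnt2, Wnt7a and Wnt2b and the receptor Fzd2 were lower in HDM, by 1.70-fold to 2.33-fold. A gene was called when its adjusted p in edgeR's quasi-likelihood test, with Benjamini-Hochberg adjustment over all 26235 genes tested, was below 0.05. Of the 47 members tested 4 were called, where 2.61% of all genes were. All 4 were lower, where 0.294% of all genes were, and 0 were higher, where 2.32% of all genes were. At an unadjusted p under 0.05 there were 1 higher and 10 lower, and DESeq2 and limma-voom also called 0 higher. The median log2 fold change was -0.29 over the members and -0.09 over all genes tested, and 35 of the 47 lay below 0.

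Wnt2 (ENSMUSG00000010797, chr6:17988940-18030585, minus strand, GRCm38) read 25.8, 18.7, 22.2 and 20.03 CPM in PBS and 8.54, 10.8 and 7.11 CPM in HDM. Every HDM library lay below every PBS library. The fitted log2 fold change was -1.22 ± 0.20 (SE), which is 2.33-fold lower, with an adjusted p of 0.00709 in edgeR, and the call was kept in all 10 fits that left out 1 library. The direction held among libraries with Y-linked reads (PBS 2 against HDM 2 and HDM 3) and among those without (PBS 1, PBS 3 and PBS 4 against HDM 1). Without the 3 libraries with Y-linked reads, which leaves HDM 1 library that is assumed to vary like the other groups, the log2 fold change was -1.41 with an edgeR adjusted p of 0.0518. Without PBS 1, PBS 4 and HDM 3 it was -1.03 with an adjusted p of 0.0727.

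Wnt7a (ENSMUSG00000030093, chr6:91363981-91411363, minus strand), a ligand made by epithelia and known from alveolar type 1 cells, read 23.0, 20.1, 15.8 and 20.9 CPM in PBS and 7.83, 9.55 and 8.88 CPM in HDM. The groups did not overlap, and the lowest PBS library was PBS 3. Its log2 fold change was -1.12 ± 0.18, 2.18-fold lower, with an edgeR adjusted p of 0.00653, kept in all 10 fits without 1 library. Its edgeR adjusted p was 0.0970 without the Y-linked libraries and 0.0941 without the high-background libraries, with log2 fold changes of -1.34 and -1.002.

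Wnt2b (ENSMUSG00000027840, chr3:104945272-104961921, minus strand), the closest relative of Wnt2, read 4.42, 4.42, 5.08 and 4.36 CPM in PBS and 2.71, 1.95 and 1.79 CPM in HDM. The groups were separate, with HDM 1 the nearest to PBS. On the log2 scale the difference was -1.04 ± 0.25 with an edgeR adjusted p of 0.0478. That call was kept only without PBS 1, and leaving out any of the other 9 libraries ended it, at an adjusted p of up to 0.203. Fzd2 (ENSMUSG00000050288, chr11:102604396-102608058, plus strand), a Frizzled of mesenchyme and other tissues, read 57.7, 38.9, 34.8 and 37.3 CPM in PBS and 23.9, 24.0 and 22.7 CPM in HDM. The HDM libraries were close together and all lay below PBS. It changed by -0.77 ± 0.18 on the log2 scale with an edgeR adjusted p of 0.0433, and the call held only without PBS 1 or without SF-3-030+HDM 3, reaching 0.159 in the other fits. Without the high-background libraries the adjusted p was 0.166 for Wnt2b and 0.204 for Fzd2, and without the Y-linked libraries 0.764 and 0.563.

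Libraries of the groups also failed to overlap for members that were not called. In all, 0 members lay wholly higher and 11 wholly lower in HDM, where 5.28% and 5.97% of all genes did. Rspo4, an R-spondin known from nail growth, read 0.795, 1.45, 1.58 and 2.33 CPM in PBS and 0.594, 0.376 and 0.614 CPM in HDM, a log2 difference of -1.53 ± 0.38 with an edgeR adjusted p of 0.0589. It was called without PBS 1, at 0.00827. Wnt10b, a ligand known for holding back fat cell formation, read 15.6, 17.3, 11.1 and 8.96 CPM in PBS and 8.11, 6.40 and 5.44 CPM in HDM, with an edgeR adjusted p of 0.0620 that became 0.0366 without PBS 4. DESeq2 called both, at 0.00380 and 0.00461. Wnt3a read 22.9 to 34.3 CPM in PBS and 14.6 to 18.5 CPM in HDM, with an edgeR adjusted p of 0.1004.

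Markers of lung cell types were read in the same comparison, in which 2.32% of all genes were called higher and 0.294% lower. The 6 alveolar fibroblast markers, all with reads in every library, summed to 4153 to 4436 CPM in PBS and 1610 to 3269 CPM in HDM, and 0 of 6 were called. The 6 alveolar type 1 markers, also read in every library, summed to 5692 to 7008 CPM in PBS and 3367 to 5024 CPM in HDM, again with 0 of 6 called. At an unadjusted p under 0.05, 2 of the fibroblast and 3 of the type 1 markers were lower, and none was higher. The 5 mesothelial markers summed to 426 to 748 CPM in PBS and 283 to 381 CPM in HDM with 1 called lower, while the 5 leukocyte markers summed to 203 to 265 CPM and 431 to 540 CPM with 3 called higher. Markers of club cells, the secretory cells of the airway, summed to 25353 to 44536 CPM in PBS and 16378 to 21658 CPM in HDM, with 1 of 4 called lower. The 6 endothelial markers summed to 3983 to 4310 CPM and 2807 to 3033 CPM and the 4 ciliated cell markers to 206 to 290 CPM and 152 to 188 CPM, with none called in either list. Summed levels of alveolar type 2, adventitial fibroblast, smooth muscle, heart, adipose, nerve, cartilage and squamous epithelial markers overlapped between PBS and HDM, and in these lists 1 marker, a squamous one, was called, as higher. The part of these shifts in the lower Wnt2, Wnt7a, Wnt2b and Fzd2 was not tested.

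**Figure D2:**
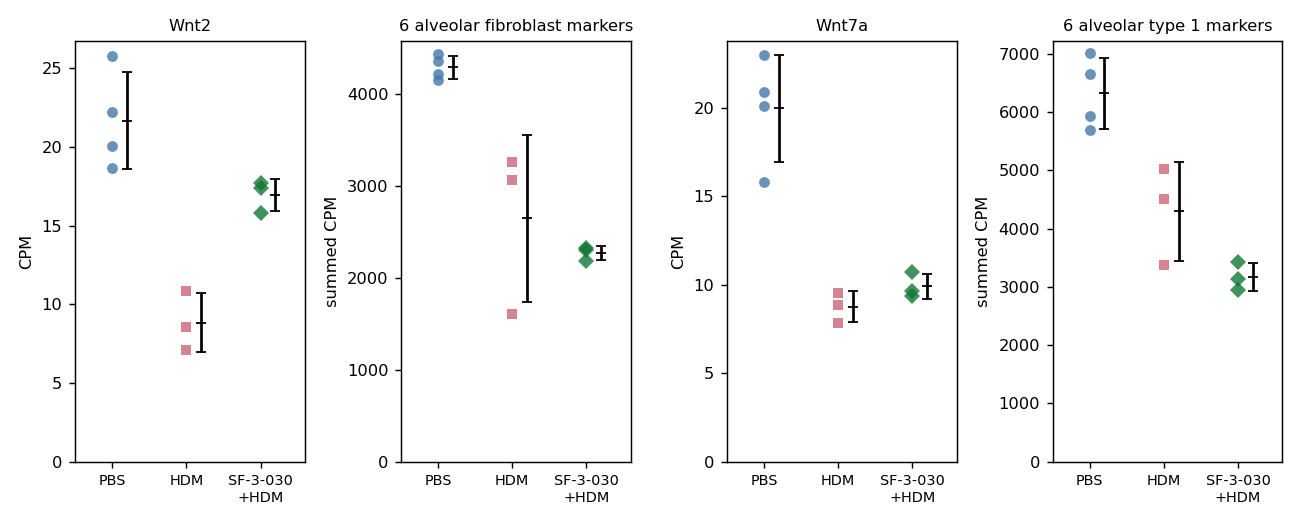
Wnt2 and Wnt7a in CPM beside the summed CPM of 6 alveolar fibroblast and 6 alveolar type 1 markers, with a point per library and mean ± SD beside the points. Wnt2 and the fibroblast markers both read lowest in HDM 3, at 7.11 CPM and 1610 CPM. In HDM 1 and HDM 2 Wnt2 read 8.54 and 10.8 CPM and the fibroblast markers 3068 and 3269 CPM. SF-3-030+HDM libraries had more Wnt2 than any HDM library, at 15.8 to 17.7 CPM. Their fibroblast sums of 2189 to 2325 CPM lay within the HDM range, below HDM 1 and HDM 2 and above HDM 3.

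Promoters were sought for 9 members called in HDM against PBS or SF-3-030+HDM against HDM, each averaging at least 1 CPM in a group. The RefSeq table held 6 of them. The 250 bases before the start are shown for Wnt7a, Wnt3a and Rspo4, the 3 with at most 30 bases inside the annotated gene. Size of change did not enter this choice. Capitals mark CG dinucleotides. The windows are from RefSeq, GRCm38.p6: Wnt7a at chr6:91411354-91411603, minus strand; Wnt3a at chr11:59290752-59291001, minus strand; Rspo4 at chr2:151842677-151842926, plus strand.
Wnt7a: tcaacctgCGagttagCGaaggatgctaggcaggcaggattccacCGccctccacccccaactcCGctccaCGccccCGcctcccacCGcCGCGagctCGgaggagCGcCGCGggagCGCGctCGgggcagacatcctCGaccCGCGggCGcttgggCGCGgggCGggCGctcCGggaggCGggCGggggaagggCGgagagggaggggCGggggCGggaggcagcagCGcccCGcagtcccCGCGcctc
Wnt3a: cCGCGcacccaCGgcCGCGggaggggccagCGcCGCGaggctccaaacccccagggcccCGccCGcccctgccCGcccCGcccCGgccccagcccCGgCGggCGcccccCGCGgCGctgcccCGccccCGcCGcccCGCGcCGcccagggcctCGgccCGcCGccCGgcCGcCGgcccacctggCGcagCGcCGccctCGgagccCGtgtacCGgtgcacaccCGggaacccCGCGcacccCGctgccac
Rspo4: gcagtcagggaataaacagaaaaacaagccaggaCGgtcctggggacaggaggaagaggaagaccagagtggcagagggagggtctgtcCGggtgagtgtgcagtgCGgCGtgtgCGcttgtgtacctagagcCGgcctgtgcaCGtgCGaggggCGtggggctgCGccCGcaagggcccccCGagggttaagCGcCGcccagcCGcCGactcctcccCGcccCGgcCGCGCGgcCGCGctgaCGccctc
The Wnt7a window held 34 CG dinucleotides at 77.6% G or C, that of Wnt3a 41 at 87.6% and that of Rspo4 24 at 69.6%. Over the 35 windows of the 32 members in the table the median was 22 CG dinucleotides and 66.8% G or C, against 6 and 52.4% over all 32851 windows. Both strands were searched for the TCF/LEF core CTTTGAT and for the AP-1 site TGANTCA, whose matches can share bases. None of the 3 windows held either, and 3.21% and 6.75% of all windows did. Among the members' 35 windows, 2 held CTTTGAT, those of Wnt5b and Wnt11, and 1 held TGANTCA, that of Wnt5b.

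SF-3-030+HDM was compared with HDM to ask what the compound changed on top of the allergen. Rspo4 and Wnt2 were higher, while Wnt4, Wnt3a, Wnt7b and Wnt8b among the ligands and the R-spondin receptor Lgr5 were lower. Of the 47 members 7 were called, where 9.49% of all genes were: 2 higher, where 3.43% were, and 5 lower, where 6.06% were. The median log2 fold change was -0.14 over the members and -0.03 over all genes tested. By role, 1 of 17 ligands was called higher and 4 lower with a median of -0.59, and 0 of 12 receptors were called with a median of 0.01. At an unadjusted p under 0.05, 1 receptor was higher and 1 lower, and DESeq2 called Fzd5 higher and Lrp5 lower. Y-linked reads were found in HDM 2 and HDM 3 and in no SF-3-030+HDM library. With a covariate for them, 3 of the 7 calls were kept, those of Rspo4, Wnt4 and Wnt7b. The 4 calls of Wnt2, Wnt3a, Lgr5 and Wnt8b were lost.

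Rspo4 (ENSMUSG00000032852, chr2:151842927-151874668, plus strand) read 0.594, 0.376 and 0.614 CPM in HDM and 3.51, 3.48 and 3.61 CPM in SF-3-030+HDM. All 3 libraries with the compound exceeded every other library of the study, the highest of which was PBS 4 at 2.33 CPM. Rspo4 rose by 2.74 ± 0.40 on the log2 scale, 6.66-fold, with an edgeR adjusted p of 0.00205, and the call held in all 10 fits without 1 library. It was 0.0967 without the Y-linked libraries, where HDM keeps 1 library, and 0.000816 without the high-background libraries.

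Wnt2 read 17.4, 15.8 and 17.7 CPM in SF-3-030+HDM against 7.11 to 10.8 CPM in HDM. The groups were separate, and the SF-3-030+HDM libraries lay below the lowest PBS library at 18.7 CPM. Wnt2 rose from HDM by 0.91 ± 0.21 on the log2 scale, 1.88-fold, with an edgeR adjusted p of 0.0231. Leaving out HDM 1, HDM 3 or any SF-3-030+HDM library ended that call, at an adjusted p of up to 0.0821. Against PBS, Wnt2 in SF-3-030+HDM differed by -0.31 on the log2 scale with an edgeR adjusted p of 0.236, which does not show that the levels are alike. Wnt7a, by contrast, read 9.34, 9.68 and 10.7 CPM in SF-3-030+HDM, and this overlapped with HDM.

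Wnt4 (ENSMUSG00000036856, chr4:137277489-137299726, plus strand), a ligand known from kidney and reproductive tract development, read 22.1, 16.5 and 25.5 CPM in HDM and 10.5, 6.95 and 8.63 CPM in SF-3-030+HDM. The groups did not overlap. Wnt4 was 2.48-fold lower, a log2 fold change of -1.31 ± 0.23 with an edgeR adjusted p of 0.00575, and it held in all 10 fits without 1 library. With a covariate for background reads the adjusted p was 0.0554. Wnt3a (ENSMUSG00000009900, chr11:59248033-59290752, minus strand) read 17.1, 18.5 and 14.6 CPM in HDM and 10.1, 9.88 and 9.20 CPM in SF-3-030+HDM, again without overlap. Its log2 fold change was -0.81 ± 0.18 with an edgeR adjusted p of 0.0186, which rose to at most 0.0903 without HDM 2 or any SF-3-030+HDM library.

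Wnt7b (ENSMUSG00000022382, chr15:85535437-85582473, minus strand), an epithelial ligand of the developing airway, read 8.15, 5.80 and 6.42 CPM in HDM and 3.60, 2.07 and 3.35 CPM in SF-3-030+HDM. The groups were separate. In log2 terms Wnt7b changed by -1.19 ± 0.26 with an edgeR adjusted p of 0.0196, lost without HDM 2, SF-3-030+HDM 1 or SF-3-030+HDM 2. Lgr5 (ENSMUSG00000020140, chr10:115450311-115587780, minus strand), an R-spondin receptor and stem cell marker of the gut, read 0.931, 1.51 and 1.44 CPM in HDM and 0.175, 0.215 and 0.171 CPM in SF-3-030+HDM. The fall was 7.02-fold, at -2.81 ± 0.52 on the log2 scale with an edgeR adjusted p of 0.00813, and 0.0510 without SF-3-030+HDM 1.

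Wnt8b, a ligand of the developing forebrain, was near 0 in SF-3-030+HDM, at 0, 0 and 0.0142 CPM, and read 0.248, 0.419 and 1.15 CPM in HDM. It had 0.839 summed expected counts against 94.5 in HDM. From counts rounded to whole numbers and scaled to the library sums, the ratio was 101. The exact Poisson interval at 95% was 17.7 to 4040 and covers counting error only. For Wnt8b the edgeR adjusted p was 0.0272, lost without HDM 2, HDM 3 or any SF-3-030+HDM library. The levels of Lgr5 and Wnt8b, and of Wnt1 and Wnt3 described with the next comparison, moved with the background reads: in PBS, Wnt8b read 2.21 and 1.20 CPM in PBS 1 and PBS 4 and 0.156 and 0.117 CPM in PBS 2 and PBS 3. With the background covariate 6 of the 7 calls against HDM were lost, at edgeR adjusted p values of 0.0587 for Lgr5, 0.0834 for Wnt8b, 0.0554 for Wnt4, 0.0769 for Wnt3a, 0.0816 for Wnt7b and 0.124 for Wnt2. Each kept its direction, and the call of Rspo4 was kept at 0.0181. Background reads did not overlap between these groups, at 15.8 to 31.8 CPM in SF-3-030+HDM and 87.4 to 222 CPM in HDM. The covariate is therefore hard to separate from the group. Without PBS 1, PBS 4 and HDM 3 all 7 calls were kept, and Fzd5 and Wnt9a were added. HDM 1 and HDM 2, at 87.4 and 110 CPM, still held more background reads than any SF-3-030+HDM library. That fit therefore does not separate background from group either.

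**Figure D3:**
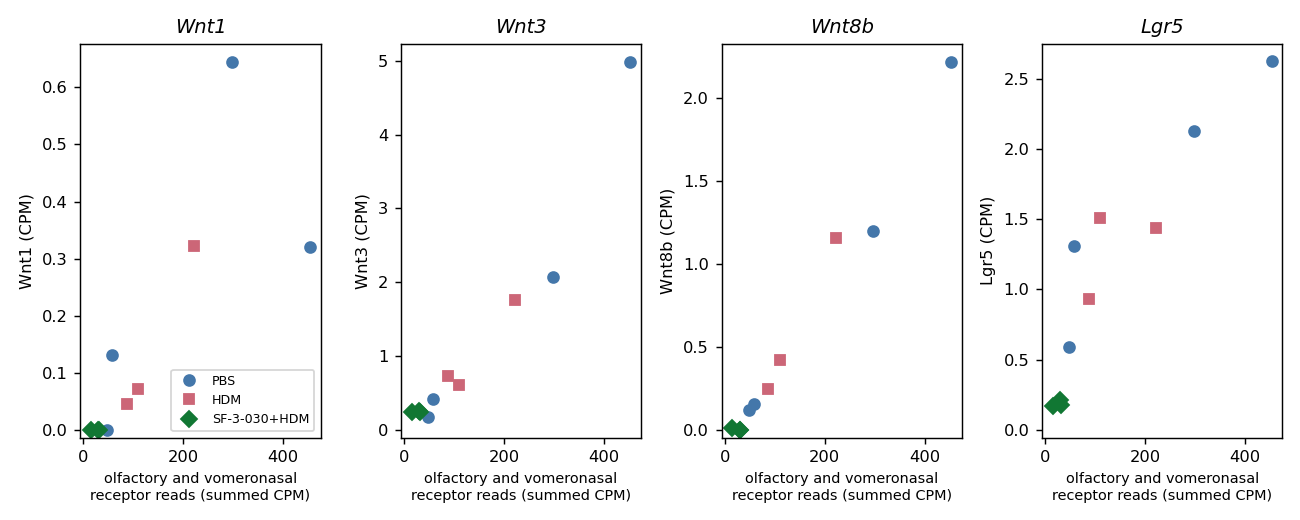
CPM of Wnt1, Wnt3, Wnt8b and Lgr5 against the summed CPM of olfactory and vomeronasal receptor genes in the same library, 1 point per library. PBS 1, PBS 4 and HDM 3, with 453, 298 and 222 CPM of receptor reads, lie at the right of each panel, and the 3 SF-3-030+HDM libraries at the left.

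**Figure D4:**
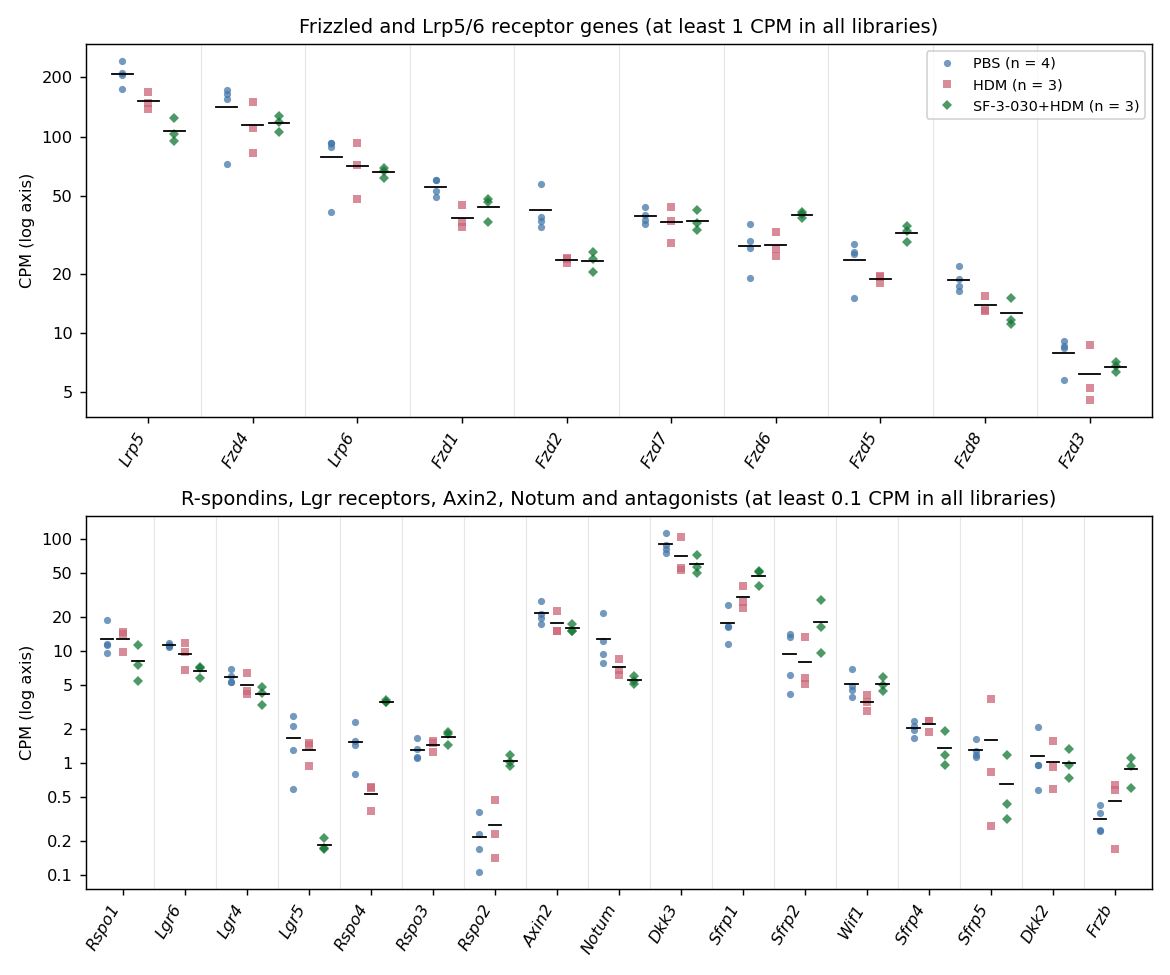
CPM on a log axis of the receptors that reached 1 CPM in every library, and of the R-spondins, Lgr receptors, antagonists, Axin2 and Notum that reached 0.1 CPM in every library, with points for libraries and bars for group means. Rspo4 and Rspo2 read highest and Lgr5 lowest in SF-3-030+HDM.

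SF-3-030+HDM against PBS compares the treated allergen lungs with the controls and shares libraries with both comparisons already given, so their values for a member are not independent. Wnt3a, Wnt4, Wnt7b, Wnt7a, Wnt2b and Wnt9a were lower by 1.95-fold to 3.12-fold, and Sfrp1, Rspo2, Rspo4, Wnt5a and Frzb were higher. Of the 47 members 22 were called, where 29.9% of all genes were: 5 higher, where 11.8% were, and 17 lower, where 18.1% were. The median log2 fold change was -0.51 over the members and -0.11 over all genes tested. Of 17 ligands tested, 1 was called higher and 11 lower, with a median of -0.97. With the background covariate 10 of the 22 calls were kept and 12 were lost, those of Wnt8b, Wnt3, Wnt1, Wnt11, Wnt5a, Fzd2, Fzd8, Rspo4, Lgr6, Sfrp1, Frzb and Notum. Without the high-background libraries 17 of the 22 calls were kept and 5 were lost. PBS 2 and PBS 3, at 58.2 and 48.0 CPM, still held more background reads than any SF-3-030+HDM library, at most 31.8 CPM. Members whose libraries did not overlap numbered 7 higher and 19 lower, where 17.0% and 21.8% of all genes did not overlap.

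Among the ligands, Wnt3a read 34.3, 23.1, 25.7 and 22.9 CPM in PBS against 9.20 to 10.1 CPM in SF-3-030+HDM. The fall was 2.65-fold, -1.40 ± 0.17 on the log2 scale, with an edgeR adjusted p of 0.000193. Wnt4 read 41.6, 24.2, 24.9 and 21.8 CPM in PBS, with PBS 1 far above the others, against 6.95 to 10.5 CPM, a log2 fold change of -1.64 ± 0.22 with an adjusted p of 0.000386. Both groups of libraries were separate for each gene, and the calls for Wnt3a, Wnt4, Wnt7b, Wnt7a, Wnt2b, Wnt9a and Wnt8b held in all 10 fits without 1 library. Wnt7b read 11.4, 6.64, 8.21 and 6.63 CPM in PBS, and its log2 fold change was -1.40 ± 0.25 with an edgeR adjusted p of 0.00237. Wnt7a changed by -0.97 ± 0.18 with an adjusted p of 0.00280, and Wnt2b, at 2.05, 1.37 and 1.88 CPM in SF-3-030+HDM, by -1.34 ± 0.25 with an adjusted p of 0.00298.

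Wnt9a (ENSMUSG00000000126, chr11:59306928-59333552, plus strand), a ligand of joint development, read 14.0, 15.6, 16.2 and 10.1 CPM in PBS, 10.95, 9.07 and 8.19 CPM in HDM, and 6.38, 5.74 and 6.76 CPM in SF-3-030+HDM. HDM overlapped PBS, and SF-3-030+HDM lay below both. From PBS, Wnt9a changed by -1.12 ± 0.22 on the log2 scale with an edgeR adjusted p of 0.00378. Wnt9a starts 16.2 kb from Wnt3a on chromosome 11, and both were called lower against PBS. Of the other neighbouring pairs of members, Wnt10b and Wnt1 lie 11.7 kb apart on chromosome 15 and were both called lower, while for Wnt9b and Wnt3, 24.3 kb apart on chromosome 11, only Wnt3 was, and for Wnt6 and Wnt10a, 6.19 kb apart on chromosome 1, neither was.

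Wnt10b read 7.08, 7.03 and 5.77 CPM in SF-3-030+HDM, below every PBS library, with a log2 fold change of -0.97 ± 0.23 and an edgeR adjusted p of 0.0118 that became 0.0536 without SF-3-030+HDM 3. Wnt11, a ligand known from kidney branching, read 21.6, 15.9, 16.9 and 14.9 CPM in PBS, 14.2, 13.4 and 12.2 CPM in HDM, and 14.9, 9.79 and 10.9 CPM in SF-3-030+HDM. The highest SF-3-030+HDM library came close to the lowest PBS library. Its log2 fold change was -0.51 ± 0.17 with an edgeR adjusted p of 0.0452, and leaving out PBS 4 alone kept the call. Wnt5a (ENSMUSG00000021994, chr14:28504750-28527448, plus strand) was the 1 ligand called higher, from 12.4, 15.5, 11.5 and 13.9 CPM in PBS through 17.9, 12.1 and 16.5 CPM in HDM to 19.7, 23.8 and 21.6 CPM in SF-3-030+HDM. SF-3-030+HDM exceeded every other library. Its rise from PBS was 0.73 ± 0.18 on the log2 scale with an edgeR adjusted p of 0.0119, which was 0.0546 without SF-3-030+HDM 2 and 0.178 with the background covariate.

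The ligands Wnt8b, Wnt3 and Wnt1 were low and highest in the libraries with most background. Wnt8b had a ratio of 136 between PBS and SF-3-030+HDM with a Poisson interval of 24.0 to 5388, and an edgeR adjusted p of 0.00700. Wnt3, a ligand of the early embryo and limb, read 4.99, 0.423, 0.169 and 2.07 CPM in PBS, 0.732, 0.613 and 1.77 CPM in HDM, and 0.242, 0.251 and 0.237 CPM in SF-3-030+HDM. Its PBS libraries enclosed the SF-3-030+HDM libraries. The edgeR log2 fold change of -2.83 ± 0.92 with an adjusted p of 0.0386 turned to 0.88 with an adjusted p of 0.350 with the background covariate, and was -0.31 with 0.696 without the high-background libraries. The call of Wnt3 was also lost without PBS 1, PBS 4, HDM 2 or any SF-3-030+HDM library. Wnt1, the founding member of the family, read 0.321, 0.131, 0 and 0.644 CPM in PBS, 0.0448, 0.0715 and 0.322 CPM in HDM, and 0.000349, 0.000358 and 0 CPM in SF-3-030+HDM. It had 52.0 counts in PBS and 0.0400 in SF-3-030+HDM, at least 14.6-fold lower at a floor of 3 counts over the group, with an edgeR adjusted p of 0.0346. PBS 3 held 0 CPM of Wnt1, so the groups overlapped, and without any SF-3-030+HDM library the call was lost.

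Among receptors, Lrp5 (ENSMUSG00000024913, chr19:3584828-3686564, minus strand) read 205, 175, 243 and 211 CPM in PBS, 168, 148 and 138 CPM in HDM, and 94.5, 103 and 125 CPM in SF-3-030+HDM. The 3 groups did not overlap. The log2 fold change from PBS was -0.41 ± 0.19 in HDM, with an edgeR adjusted p of 0.485, and -0.92 ± 0.19 in SF-3-030+HDM, with 0.00632 and a call kept in all 10 fits without 1 library. The other co-receptor, Lrp6, read 88.4, 93.0 and 92.3 CPM in PBS 2 to PBS 4 and 41.5 CPM in PBS 1, and 61.5 to 68.9 CPM in SF-3-030+HDM, and was not called. Fzd2 read 20.4, 23.9 and 25.8 CPM in SF-3-030+HDM and differed from PBS by -0.79 ± 0.18 on the log2 scale with an edgeR adjusted p of 0.00823, or 0.0501 without SF-3-030+HDM 1. Fzd8, a Frizzled that binds several beta-catenin ligands, read 22.0, 17.3, 18.9 and 16.4 CPM in PBS, 15.5, 12.9 and 13.1 CPM in HDM, and 11.6, 11.1 and 15.1 CPM in SF-3-030+HDM. Its edgeR adjusted p was 0.0459 at a log2 fold change of -0.52 ± 0.18, and the call held in 1 of 10 fits without 1 library.

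The remaining receptors passed in no comparison. Fzd4 ran from 72.7 CPM in PBS 1 to 174 CPM in PBS 3, with HDM libraries at 82.5 to 149 CPM and SF-3-030+HDM libraries at 105 to 127 CPM. Fzd1 ranged from 34.5 to 60.3 CPM and Fzd7 from 28.8 to 44.0 CPM over the 10 libraries. Fzd5, an epithelial Frizzled, read 18.0 to 19.4 CPM in HDM and 29.0 to 35.2 CPM in SF-3-030+HDM without overlap, at an edgeR adjusted p of 0.0763. Fzd6, known for hair patterning, read 24.7 to 32.8 CPM in HDM and 38.3 to 41.4 CPM in SF-3-030+HDM, at an adjusted p of 0.207. Fzd3, a receptor of axon guidance, ranged from 4.54 to 9.08 CPM over all libraries.

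R-spondins and their receptors moved in both directions against PBS. Rspo2, an R-spondin needed for limb and lung formation, read 0.233, 0.106, 0.169 and 0.366 CPM in PBS, 0.231, 0.463 and 0.142 CPM in HDM, and 1.02, 1.18 and 0.948 CPM in SF-3-030+HDM. The SF-3-030+HDM libraries lay above all others. The log2 fold change from PBS was 2.30 ± 0.57 with an edgeR adjusted p of 0.0129, or 0.0511 without SF-3-030+HDM 2, and from HDM it was 1.84 ± 0.61 with 0.0762. Rspo4 was above PBS by 1.20 ± 0.35 with an adjusted p of 0.0240, lost without any of the 3 SF-3-030+HDM libraries. Lgr5 read 2.62, 1.31, 0.587 and 2.13 CPM in PBS, 8.40-fold above SF-3-030+HDM, with an edgeR adjusted p of 0.00149 and all 10 fits without 1 library in accord. Lgr6, a receptor found in airway smooth muscle and skin, read 11.9, 10.8, 11.01 and 11.2 CPM in PBS, 11.9, 6.74 and 9.84 CPM in HDM, and 7.07, 5.74 and 7.19 CPM in SF-3-030+HDM, with an adjusted p of 0.0178 against PBS that was lost without SF-3-030+HDM 1 or SF-3-030+HDM 2. Rspo1, an R-spondin of the gonad, ranged from 5.37 to 18.9 CPM and Lgr4 from 3.28 to 6.97 CPM without a call.

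Of the secreted antagonists, Sfrp1 (ENSMUSG00000031548, chr8:23411502-23449632, plus strand) read 11.5, 25.5, 16.5 and 16.8 CPM in PBS, 24.4, 27.6 and 38.3 CPM in HDM, and 38.4, 51.9 and 50.2 CPM in SF-3-030+HDM. SF-3-030+HDM lay above all other libraries, and HDM overlapped PBS through PBS 2. Sfrp1 rose from PBS by 1.43 ± 0.28 on the log2 scale, 2.69-fold, with an edgeR adjusted p of 0.00448 and a call kept in all 10 fits without 1 library. With the background covariate it was 0.98 with an adjusted p of 0.104. Frzb, a relative of the Sfrp proteins from cartilage, read 0.3596, 0.249, 0.2496 and 0.418 CPM in PBS, 0.632, 0.171 and 0.575 CPM in HDM, and 0.594, 1.11 and 0.948 CPM in SF-3-030+HDM. Its edgeR adjusted p of 0.0443 against PBS, at 1.50 ± 0.51 on the log2 scale, was lost without any PBS or SF-3-030+HDM library.

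Dkk3 was not called, with PBS libraries at 75.1 to 114 CPM, HDM libraries at 52.6 to 105 CPM and SF-3-030+HDM libraries at 50.1 to 71.4 CPM. Sfrp2, an antagonist of fibroblasts, spread widely in each group, over 4.09 to 14.1 CPM (PBS), 5.08 to 13.3 CPM (HDM) and 9.68 to 28.6 CPM (SF-3-030+HDM). Wif1 ranged from 2.92 to 6.95 CPM over all libraries. The remaining antagonists, Sfrp4, Sfrp5, Dkk2 and Dkk4, reached at most 2.39, 3.75, 2.10 and 0.614 CPM in any library and were not called.

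Axin2 and Notum, both induced by beta-catenin, bear on the pathway's output. Axin2, a scaffold of beta-catenin degradation and a common readout of the pathway, read 21.6, 17.5, 28.2 and 19.6 CPM in PBS, 23.0, 15.0 and 15.0 CPM in HDM, and 15.0, 17.6 and 15.2 CPM in SF-3-030+HDM. The groups overlapped, and the edgeR log2 fold changes from PBS of -0.26 ± 0.21 in HDM and -0.42 ± 0.21 in SF-3-030+HDM had adjusted p values of 0.879 and 0.150. Notum, an enzyme that removes the lipid from Wnt proteins, read 21.6, 12.4, 9.39 and 7.76 CPM in PBS, 8.47, 6.79 and 6.16 CPM in HDM, and 5.93, 5.09 and 5.41 CPM in SF-3-030+HDM. It differed from PBS in SF-3-030+HDM by -1.16 ± 0.28 on the log2 scale with an adjusted p of 0.0111, or 0.0524 without SF-3-030+HDM 2. Exons of 9 members, among them Axin2, Notum, Wnt5a, Wnt7b and Wnt11, overlap genes annotated on the opposite strand, and as the strand of the libraries is not given in the sources used here, their reads are uncertain.

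**Figure D5:**
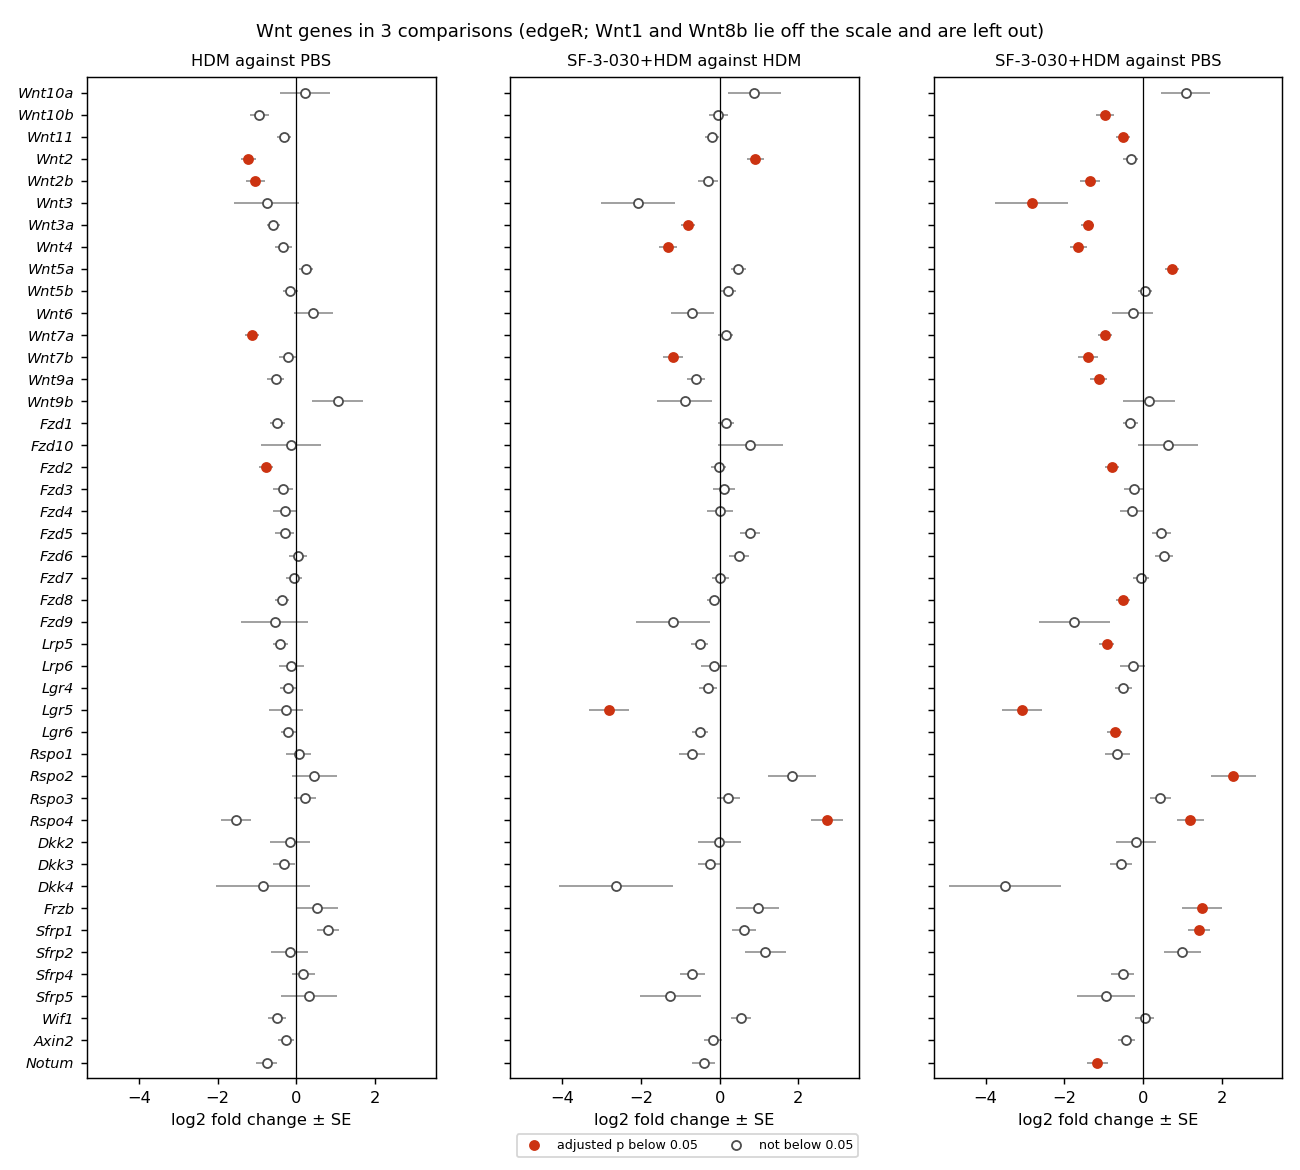
Fitted log2 fold change ± SE of the members tested, by role from ligands at the top to Axin2 and Notum at the bottom, in the 3 comparisons; filled points had an adjusted p below 0.05 in edgeR. Wnt1 and Wnt8b are not drawn, and most filled ligand points of SF-3-030+HDM against PBS lie left of 0, with Wnt5a on the right.

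Cell type markers were also read in SF-3-030+HDM. Over all genes, 11.8% were called higher and 18.1% lower against PBS, and 3.43% and 6.06% against HDM. The alveolar fibroblast markers summed to 2189 to 2325 CPM, and 1 of 6 was called higher against HDM, while against PBS 1 was called higher and 1 lower. The alveolar type 1 markers summed to 2948 to 3424 CPM, with 3 of 6 called lower against PBS and 1 against HDM. Alveolar type 2 markers summed to 25941 to 34596 CPM, against 42109 to 56729 CPM in PBS and 41951 to 55598 CPM in HDM, with 3 of 6 called lower against PBS and 2 against HDM. The club cell markers summed to 17820 to 23283 CPM, which overlapped with HDM, and 2 of 4 were called lower in both comparisons. Of the ciliated cell markers, at 102 to 166 CPM, 1 of 4 was called lower in both, and of the endothelial markers, at 3114 to 3374 CPM, 1 of 6 was called lower against PBS. The mesothelial markers summed to 223 to 336 CPM with 2 of 5 called lower against PBS. The 5 leukocyte markers summed to 560 to 688 CPM, with all 5 called higher against PBS and none called against HDM. Heart markers were lower, at 78.1 to 173 CPM against 290 to 743 CPM in PBS and 253 to 336 CPM in HDM. Adipose markers were lower too, at 1.74 to 4.01 CPM against 16.6 to 42.3 and 10.8 to 28.8 CPM. All 4 adipose markers were called lower in both comparisons, and of 5 heart markers 5 were called lower against PBS and 2 against HDM. Squamous epithelial markers summed to 4.18 to 9.09 CPM, above HDM at 1.60 to 2.78 CPM, with 1 of 4 called higher against HDM. Nerve markers summed to 54.4 to 61.2 CPM, below HDM at 67.1 to 70.7 CPM, with none called. Both lists overlapped with PBS. Sums of cartilage, smooth muscle and adventitial fibroblast markers overlapped with PBS and with HDM. The part of these marker levels in the changes of Wnt genes was not tested.

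Beyond the family, 64 other genes of the pathway were counted, from Wnt secretion to nuclear factors and targets. In HDM against PBS 0 were called higher, where 2.32% of all genes were, and 1 lower, where 0.294% were. The list median was -0.09 on the log2 scale, the same as over all genes. At an unadjusted p under 0.05 there were 3 higher and 7 lower, and DESeq2 called Cd44 higher. The gene called lower in edgeR was Bambi, a membrane protein that modulates TGF-beta and Wnt signals. It read 27.6, 24.1, 23.1 and 23.3 CPM in PBS, 16.6, 13.8 and 15.0 CPM in HDM, and 9.50, 9.62 and 9.65 CPM in SF-3-030+HDM, with no overlap between any groups. Its log2 fold change was -0.64 ± 0.13 in HDM with an edgeR adjusted p of 0.0261, called in 2 of 10 fits without 1 library, and -1.32 ± 0.14 in SF-3-030+HDM against PBS with 7.03e-05.

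In SF-3-030+HDM against HDM 1 of the 64 genes of the list was called higher, where 3.43% of all genes were. Of the same 64, 4 were called lower, where 6.06% of all genes were. The list median was 0.02. The gene called higher was Cthrc1, a secreted protein of injured tissue that can favour Wnt signals without beta-catenin, at 1.29, 1.08 and 2.69 CPM in HDM and 4.55, 4.83 and 5.42 CPM in SF-3-030+HDM. Cthrc1 rose by 1.55 ± 0.31 on the log2 scale with an edgeR adjusted p of 0.0140. On the log2 scale, the genes called lower changed by -3.34 ± 0.66 for Kremen2, a receptor for Dkk proteins, -3.37 ± 0.90 for Sostdc1, a secreted inhibitor of BMP and Wnt, -0.80 ± 0.19 for Nkd2, a cytoplasmic inhibitor, and -0.68 ± 0.14 for Bambi. Kremen2 and Sostdc1 were low, at 0.989 ± 0.201 and 1.45 ± 0.928 CPM in HDM (SD, n = 3). The call of Cthrc1 was lost without HDM 2 or SF-3-030+HDM 3 and that of Kremen2 without SF-3-030+HDM 1. Bambi lost its call without HDM 2, SF-3-030+HDM 1 or SF-3-030+HDM 2, Nkd2 without HDM 1, HDM 2 or any SF-3-030+HDM library, and Sostdc1 without PBS 4, HDM 2, HDM 3 or any SF-3-030+HDM library. With the background covariate Kremen2 and Nkd2 kept their calls, and Bambi, Cthrc1 and Sostdc1 lost theirs at edgeR adjusted p values of 0.0502, 0.0706 and 0.290.

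In SF-3-030+HDM against PBS 3 of the 64 genes of the list were called higher, where 11.8% of all genes were. Of the same 64, 10 were called lower, where 18.1% of all genes were. The list median was -0.06. Those called higher were Wisp1, a matrix-associated target of beta-catenin, at 1.70 ± 0.32 with an edgeR adjusted p of 0.00307, Ctnnbip1, an inhibitor that binds beta-catenin, at 1.07 ± 0.21 with 0.00401, and Cd44, an adhesion receptor of leukocytes and other cells, at 0.85 ± 0.21 with 0.0138, a call lost without SF-3-030+HDM 3 and, at 0.378, with the background covariate. The lowest p values among genes called lower belonged to Bambi, to Tcf7l1, a nuclear factor that mostly represses targets, at -0.74 ± 0.13 with 0.00253, to Porcn, the enzyme that lipidates Wnt proteins, at -0.90 ± 0.17 with 0.00298, and to Kremen2 at -3.30 ± 0.64 with 0.00387. Of the 6 listed targets of beta-catenin, 2 were called higher (Wisp1 and Cd44) and 3 lower (Bambi, Ccnd1 and Tnfrsf19), with a median of -0.45. Mean levels in PBS and SF-3-030+HDM were 230 and 148 CPM for Ccnd1 and 39.1 and 17.1 CPM for Tnfrsf19. Beta-catenin itself, Ctnnb1, was not called in any comparison, with edgeR log2 fold changes of 0.02 ± 0.25, 0.10 ± 0.27 and 0.11 ± 0.25 and adjusted p values of 0.998, 0.854 and 0.761. Wls, the carrier that takes Wnt proteins to the surface, was not called either, with adjusted p values of 0.986, 0.782 and 0.459.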

How the data were processed

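RNA-seq counts of 10 mouse lung libraries in 3 groups (PBS n = 4, HDM n = 3, SF-3-030+HDM n = 3) were analysed. Libraries were sequenced on an Illumina HiSeq, per the labels' protocols. Per the submitters' processing notes, the tools were STAR 2.5.2b and Trimmomatic 0.36 and the genome build was GRCm38. How reads were counted, on which annotation and with what strand setting was not given in the sources used here. The table deposited by the authors holds expected counts, 1 column per library. At a tolerance of 0.001, 88.5% of its filled cells hold fractions, and blank cells, 34.4% of all, were read as 0. The deposited log2 values, normalised by the authors per the file headers, repeat the counts and were not tested.

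Rounded expected counts were fitted with edgeR 4.0.16 (R 4.3.3). The filter filterByExpr kept 26235 genes, TMM scaled the libraries, and all 10 libraries entered 1 quasi-likelihood fit with group as its term. Each comparison was a two-sided contrast with Benjamini-Hochberg adjustment over all genes tested and a threshold of 0.05. CPM uses summed expected counts of each library, and each SE was derived from the fold change and its F statistic. A group whose counts rounded to 0 was set to a floor of 3 counts over the group, and a ratio was given an exact Poisson interval at 95% where the counts rounded to 1. That ratio used counts rounded to whole numbers and scaled to the library sums of each group. Intervals and floors cover counting error only. Of the table's identifiers 53237 are in GENCODE M21 (GRCm38), used for gene types, positions and exon lengths. Promoter windows are RefSeq's (GRCm38.p6). They were sought for the 9 members called in HDM against PBS or SF-3-030+HDM against HDM with a group mean of at least 1 CPM. Of these 6 were in the table, and the 3 with at most 30 bases inside the GENCODE gene are printed. One further symbol match, the non-coding Rspo4os, is not a member.

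Members, gene lists and cell type markers were chosen with earlier results of these data known. The text names every member called in at least 1 comparison (23) with its libraries, members above 5 CPM in a group that were not called, and in the pathway list the 4 genes with the smallest p in each direction. As alternatives, libraries were scaled by RLE or upper quartile, the tool was changed to DESeq2 1.42.0 or limma-voom (limma 3.58.1), the filter was dropped or set to 1 CPM in at least 3 libraries, each pair of groups was fitted alone, the replicate number was added as a block, the threshold was set to 0.01, and every library was left out in turn. Added after seeing the data were fits without the 3 libraries with Ddx3y above 10 CPM, without the 3 with the most background, and with a covariate for either. In simulated data for HDM against PBS with 25037 genes, 28% of genes changed by 2-fold and 84% of those changed by 4-fold were called, with 6 false calls among 118.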

Additional observations from a re-analysis of the deposited data

Results flagged for a closer look

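In groups of 4 libraries, a library was marked when its gap to the nearest of the others took up more of the group's range than Dixon's 95% limit. Of 43 members tested in PBS, 3 had such a library, and chance marks about 1 in 20. Lrp6 read 41.5 CPM in PBS 1, where the other PBS libraries read 88.4 to 93.0 CPM. Wnt4 read 41.6 CPM in PBS 1, with 21.8 to 24.9 CPM in the others. Wnt2b read 5.08 CPM in PBS 3, with 4.36 to 4.42 CPM in the others. PBS 1 also held the most olfactory and vomeronasal receptor reads, at 453 CPM, and the smallest summed expected counts.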

How the results depend on the processing

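Of 718 alternative values for the 33 calls on members, 552 kept direction and call, 165 kept direction without the call, and 1 reversed: Wnt3 in SF-3-030+HDM against PBS became 0.88 with the background covariate, and the cause was not tested. In HDM against PBS the 4 members called became 7 with DESeq2, 2 with only the groups compared, 2 with the Y-linked covariate, 2 at a threshold of 0.01, 0 without the Y-linked libraries and 1 without the high-background libraries, and 2 to 5 with 1 library left out. In SF-3-030+HDM against HDM the 7 called became 13 with DESeq2, 4 with the background covariate (3 higher and 1 lower, against 2 and 5), 3 with the Y-linked covariate, 3 at 0.01 and 0 without the Y-linked libraries, and 2 to 8 with 1 library left out. Of the 4 with the background covariate 1, Rspo4, was among the 7, and Fzd10, Wnt10a and Wnt9a were added. Without the high-background libraries 9 were called, all 7 among them, and Fzd5 and Wnt9a were added. In SF-3-030+HDM against PBS the 22 called became 14 with the background covariate, 10 of them among the 22, and 11 at 0.01, and 12 to 20 with 1 library left out. For the pathway list in HDM against PBS the 1 gene called became 2 with upper-quartile scaling, 3 with DESeq2, 0 with no filter, 2 with the filter of 1 CPM, 0 with only the groups compared, 0 without the Y-linked libraries, 2 with the background covariate, 0 with the Y-linked covariate, 0 at 0.01, and 0 to 1 with 1 library left out. In SF-3-030+HDM against HDM the 5 called became 9 with DESeq2, 1 without the Y-linked libraries, 9 without the high-background libraries, 2 with either covariate and 0 at 0.01, and 1 to 7 with 1 library left out. In SF-3-030+HDM against PBS the 13 called became 20 with upper-quartile scaling and 8 at 0.01, and 9 to 18 with 1 library left out. Upper-quartile scaling moved the median log2 fold change of all genes from -0.11 to -0.31 in SF-3-030+HDM against PBS and from -0.03 to -0.19 against HDM, and no called member changed direction with it.

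The same replicate numbers stand in all groups, but in 9 pairs of libraries with the same number the deviations from group means had correlations from -0.63 to 0.19 across genes, so the numbers were not taken as a pairing. With a block on the replicate number, members called were 0 in HDM against PBS, 4 in SF-3-030+HDM against HDM and 12 in SF-3-030+HDM against PBS, and pathway genes 0, 2 and 8.

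Groups of 3 and 4 libraries limit every comparison. Calls near the threshold rest on single libraries, and members below 1 CPM on few reads.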
